A study of Mus musculus with 2 samples.

Results

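The 36 genes described here encode laminin chains, the proteins that link laminin into a basement membrane, other adhesive matrix proteins, and their receptors, the integrins and dystroglycan. They were picked by symbol from the 43346 mouse genes in the deposited gene tables, and all 36 were found. They comprise 10 laminin chains, 3 linker genes, the dystroglycan gene Dag1, 3 further matrix genes, 12 integrin alpha subunits and 7 integrin beta subunits. RNA came from the neural tube of healthy B6NCrl mouse embryos at 13.5 days, males and females pooled, with 10 ng used for each library. The series has 1 group with 2 biological replicates, called replicate 1 and replicate 2. No treatment, genotype contrast or second age was available, so each comparison below sets a gene against another gene or a library against the other.

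A laminin is a trimer of an alpha, a beta and a gamma chain that self-assembles into a sheet on the surface of the neural tube, around its blood vessels and along nerve roots. Nidogens and the proteoglycan perlecan tie that sheet to the type IV collagen network. Cells hold on to it through integrins, which are pairs of an alpha and a beta subunit, and through dystroglycan. The end feet of radial glia are anchored to this pial basement membrane, and other integrins bind fibronectin or vitronectin through an Arg-Gly-Asp (RGD) site.

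Replicate 1 held 34125110 estimated reads and replicate 2 held 22311849, of which 32151162 and 21084234 fell on mouse genes. The 36 genes took 0.161% (95% Wilson interval 0.159 to 0.162) and 0.165% (0.163 to 0.167) of those reads, intervals that cover counting error only. Markers of some other tissues were unequal between the libraries. Of 9 tested skeletal muscle markers, 7 were called higher in replicate 2 (at least 2-fold, by the test given further on), as were 1.45% of all genes tested, with summed levels of 125 and 218 TPM in replicates 1 and 2, and Myf6 was at 0 counts in replicate 2. Of 9 epidermal markers 6 were called higher, with sums of 13.2 and 28.9 TPM. Of 4 tested genes of the notochord list (T, Krt8, Krt18 and Shh), 2 were called higher. The list summed to 3.56 and 9.3 TPM, with Noto at 0 counts in both libraries. All 7 neuronal markers and all 7 progenitor markers were detected, with none at 2-fold. In bulk RNA, fewer cells of a type and less RNA per cell cannot be told apart.

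The sequences below show the adhesive sites and alternative parts of the members with the most to compare at transcript level. They are coding bases of GENCODE M21 transcripts, written 5′ to 3′ on the gene's own strand, with positions on GRCm38 (mm10). In fibronectin, capitals mark the RGD codons, the first at codon 1614 (chr1:71606725-71606775, minus strand) and the second at codon 2181 (chr1:71597422-71597472, minus strand) of the Fn1-201 coding sequence. Vitronectin has its RGD codons at codon 64 of Vtn-201, and the 51 bases shown lie within chr11:78499607-78499735 (plus strand), with an intron between them.
Fn1 RGD 1: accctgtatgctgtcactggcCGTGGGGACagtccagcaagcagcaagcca
Fn1 RGD 2: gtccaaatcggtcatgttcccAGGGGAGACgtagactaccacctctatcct
Vtn RGD 1: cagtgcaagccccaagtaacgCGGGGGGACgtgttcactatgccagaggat

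Fibronectin mRNA also carries 2 exons that are spliced in or out, EDA and EDB. The EDA exon has 270 bases (chr1:71603660-71603929, minus strand), and capitals mark the codons of its integrin-binding loop, known to be contacted by the alpha 4 and alpha 9 integrins. The EDB exon has 273 bases (chr1:71613763-71614035, minus strand), with no base in capitals. Both lengths are multiples of 3, so either exon can be skipped without a change of reading frame.
EDA exon: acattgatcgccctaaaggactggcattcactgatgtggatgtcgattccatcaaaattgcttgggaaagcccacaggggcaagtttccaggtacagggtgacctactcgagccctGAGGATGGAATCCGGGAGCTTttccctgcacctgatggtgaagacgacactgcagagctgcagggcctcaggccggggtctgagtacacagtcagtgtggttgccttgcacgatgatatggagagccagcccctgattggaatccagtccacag
EDB exon: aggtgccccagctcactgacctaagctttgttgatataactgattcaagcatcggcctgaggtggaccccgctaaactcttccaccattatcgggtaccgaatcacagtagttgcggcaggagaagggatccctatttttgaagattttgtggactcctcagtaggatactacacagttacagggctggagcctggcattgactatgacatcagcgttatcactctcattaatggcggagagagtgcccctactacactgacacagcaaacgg

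Integrin alpha 6 has 2 cytoplasmic tails. Inclusion of a 130-base exon (chr2:71853534-71853663, plus strand) gives the A tail, whose coding bases end within that exon. Skipping the exon gives the B tail from the next exon. The coding bases of each tail are shown without the stop codon, A at chr2:71853534-71853638 and B at chr2:71855854-71856012. Capitals mark the codons just inside the membrane that integrin alpha subunits share, after which the 2 tails diverge.
Itga6 A tail: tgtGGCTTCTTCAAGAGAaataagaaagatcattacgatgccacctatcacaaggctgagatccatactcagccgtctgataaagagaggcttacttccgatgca
Itga6 B tail: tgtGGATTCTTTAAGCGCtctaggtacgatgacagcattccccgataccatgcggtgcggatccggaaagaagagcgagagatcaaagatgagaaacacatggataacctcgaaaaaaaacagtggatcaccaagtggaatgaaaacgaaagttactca

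Most of the genes were expressed. TPM is a level per transcript length, scaled to the library. At 1 TPM or more in both libraries, 31 of 36 were detected, against 61.8% of all 21474 protein-coding genes. The genes below that level were the laminin chains Lama3 and Lamb3 and the integrin subunits Itga10, Itgb6 and Itgb7. A mean of 10 TPM or more was reached by 13 of the 36, against 40.9% of protein-coding genes. The median over the 36 genes was 6.72 TPM, and over protein-coding genes 4.97 TPM. The plot of levels by library shows each gene, and Vtn and Itgb1 stood apart from all others at the top.

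**Figure D1:**
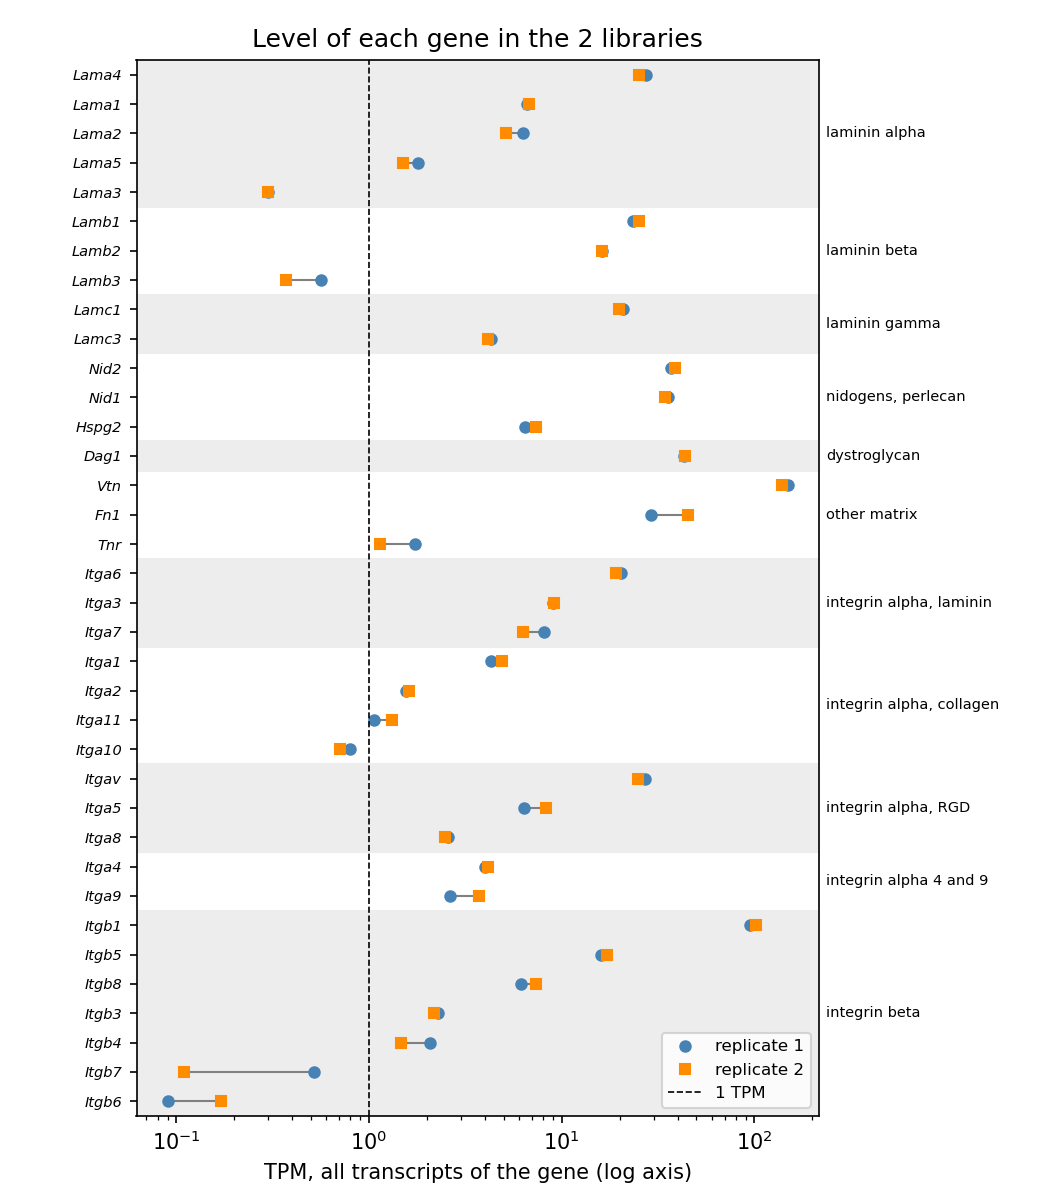
TPM of each of the 36 genes (log axis) in replicate 1 (circles) and replicate 2 (squares), grouped by role and ordered by mean within a role. The dashed line marks 1 TPM, and 5 genes lie to its left in both libraries. The widest gaps between the libraries are those of Itgb7, Itgb6, Fn1 and Tnr.

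Among the laminin alpha chains Lama4, the alpha 4 chain typical of vessels, was the most abundant. It measured 27.5 TPM in replicate 1 and 25.3 TPM in replicate 2 (26.4 ± 1.57, SD, n = 2; chr10:38965515-39110188), or 64.8% ± 0.104 of laminin alpha TPM. Lama1, the alpha 1 chain of the early pial membrane, followed at 6.59 and 6.76 TPM. Lama2, the alpha 2 chain of muscle, vessels and Schwann cells, was at 6.33 and 5.15 TPM. The widely expressed alpha 5 chain gene Lama5 was lower, at 1.79 and 1.5 TPM. Lama3, the alpha 3 chain of epithelia, had 71 and 43 reads and 0.30 TPM in both libraries. The 2 libraries' ranges were apart for every neighbour in this order, Lama4, Lama1, Lama2, Lama5, Lama3. With the deposited posterior mean TPM, those of Lama1 (6.43 and 6.5) and Lama2 (6.63 and 5.82) overlapped.

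Of the beta chains, Lamb1 was at 23.5 and 25.1 TPM (24.3 ± 1.14, SD, n = 2) and Lamb2 at 16.2 and 16.3 TPM. Lamb1, the beta chain of most embryonic laminins, was higher in both libraries and held 59.2% ± 1.25 of laminin beta TPM, with 39.6% ± 0.898 on Lamb2. Lamb3, which pairs with alpha 3 in skin, had 21 reads in each library. The gamma chain was mainly Lamc1, at 20.9 and 19.8 TPM, with Lamc3 at 4.32 and 4.13 TPM. Lamc1, the gamma chain of most laminins, held 82.8% ± 0.0723 (SD, n = 2) of the TPM of these 2 gamma chains, a share that differed little between the libraries. Summed over chains, the alpha and beta levels were 1.66 and 1.67 times the gamma level.

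Of the linkers, the 2 nidogen genes were above every laminin chain and the perlecan gene was not. Nid2 was at 37.0 and 38.6 TPM (37.8 ± 1.14, SD, n = 2) and Nid1 at 35.5 and 34.5 TPM (35.0 ± 0.700). The nidogen genes thus lay within a narrow band, with Nid2 above Nid1 in both libraries. Hspg2, which encodes perlecan, measured 6.47 and 7.35 TPM. Dag1, whose product is cut into the laminin-binding and membrane-spanning parts of dystroglycan, was at 43.1 and 43.4 TPM (43.3 ± 0.247), above every laminin chain.

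Vitronectin, an adhesive glycoprotein of plasma and matrix, had the highest level of the 36 genes. Vtn (ENSMUSG00000017344.4, chr11:78499091-78502324) was at 149 TPM in replicate 1 and 138 TPM in replicate 2 (144 ± 7.83, SD, n = 2). Fibronectin, the main RGD ligand of mesenchyme and vessels, was lower and less even between the libraries. Fn1 (ENSMUSG00000026193.11, chr1:71585520-71653200) was at 29.1 and 45.1 TPM (37.1 ± 11.3). The Vtn level was 5.13 times that of Fn1 in replicate 1 and 3.07 times in replicate 2. Tnr, the brain matrix protein tenascin-R, was near the detection level at 1.73 and 1.14 TPM. The liver also makes vitronectin, and the liver marker Alb was at 0.82 and 0.43 TPM. The sum over the 5 liver-list genes was 9.91 and 106.9 TPM, of which Ttr, also made by choroid plexus, held 1.93 and 103 TPM. Their part in the Vtn level was not tested.

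Itgb1, the beta 1 subunit that pairs with most alpha subunits, was the second most abundant gene of the 36. It was at 94.4 and 101.8 TPM (98.1 ± 5.19, SD, n = 2; chr8:128685654-128733200) and held 77.9% ± 0.316 of integrin beta TPM. Itgb5, a partner of alpha V, came next at 16.0 and 17.2 TPM, a level that Itgb1 exceeded 5.91-fold. Itgb8, another alpha V partner, known to activate latent TGF-beta and to be made by neural progenitors, was at 6.18 and 7.36 TPM. Itgb3, the platelet and vessel subunit, was at 2.29 and 2.18 TPM, and Itgb4, the hemidesmosome subunit, at 2.08 and 1.47 TPM. The epithelial subunit Itgb6 had 10 and 7 reads. Itgb7, known from lymphocytes, had 30 reads in replicate 1 and 4 in replicate 2. In this order the ranges of neighbours were apart except for Itgb7 and Itgb6, which overlapped. With the deposited posterior mean TPM, Itgb4 (2.67 and 2.56) was above Itgb3 (2.26 and 2.14). On that scale Itgb6 (0.91 and 1.42) was above Itgb7 (0.66 and 0.35).

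Over all transcript models, the integrin alpha subunits together had less TPM than Itgb1, whose level was 1.13 ± 0.0705 times their sum (SD, n = 2). That sum includes short models. Itgav had a mean of 26.0 TPM over all models and 6.59 over those of 1000 bases or longer, and Itgb1 98.1 and 97.9. The laminin receptors Itga6, Itga3 and Itga7 held 41.2% ± 1.80 of alpha TPM. Itga6 was at 20.2 and 19.2 TPM, Itga3 at 8.98 and 9.12 TPM, and Itga7, known from muscle and Schwann cells, at 8.11 and 6.31 TPM. Over all transcript models, the RGD receptors Itgav, Itga5 and Itga8 held 41.1% ± 0.0297, a share that falls to 25.3% ± 2.26 over models of 1000 bases or longer, where the laminin receptors held 51.0% ± 4.44. Within them Itgav, the alpha V subunit, was at 27.2 and 24.8 TPM, the fibronectin receptor subunit Itga5 at 6.39 and 8.27 TPM and Itga8 at 2.57 and 2.47 TPM. The ranges of Itga5 and Itga7 overlapped, and those of all other neighbours among the 12 alpha subunits were apart. With posterior mean TPM, the range of Itga9 (3.6 and 5.04) also covered those of Itga4 (3.99 and 4.1) and Itga1 (4.19 and 4.74).

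Collagen receptors were lower, at 9.33% ± 0.780 of alpha TPM. Itga1 was at 4.29 and 4.92 TPM, Itga2 at 1.56 and 1.61 TPM, Itga11 at 1.06 and 1.32 TPM and Itga10 at 0.80 and 0.71 TPM. Itga1, the alpha 1 subunit of vessel walls, was thus the leading collagen receptor in both libraries. The related subunits Itga4 and Itga9, which bind the EDA loop and other matrix and vessel ligands, held 8.31% ± 1.05. Itga4 was at 4.01 and 4.13 TPM and Itga9 at 2.63 and 3.71 TPM. Of Itga10's exon bases, 33.5% are shared with Gm42957 on the same strand. Gm42957 is a GENCODE M21 gene with no deposited level, so its reads on the shared bases could have been counted to Itga10.

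These levels depend on short transcript models. Because TPM divides reads by length, a read on a short model adds more to a gene's TPM than a read on a long one. Models under 1000 bases held over 20% of the gene's TPM in both libraries for 8 of the 36 genes, Lama2, Lama4, Lama5, Lamb2, Hspg2, Tnr, Vtn and Itgav. The comparison of levels with and without short models shows how far each gene moves, in an alternative chosen after seeing the data.

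**Figure D2:**
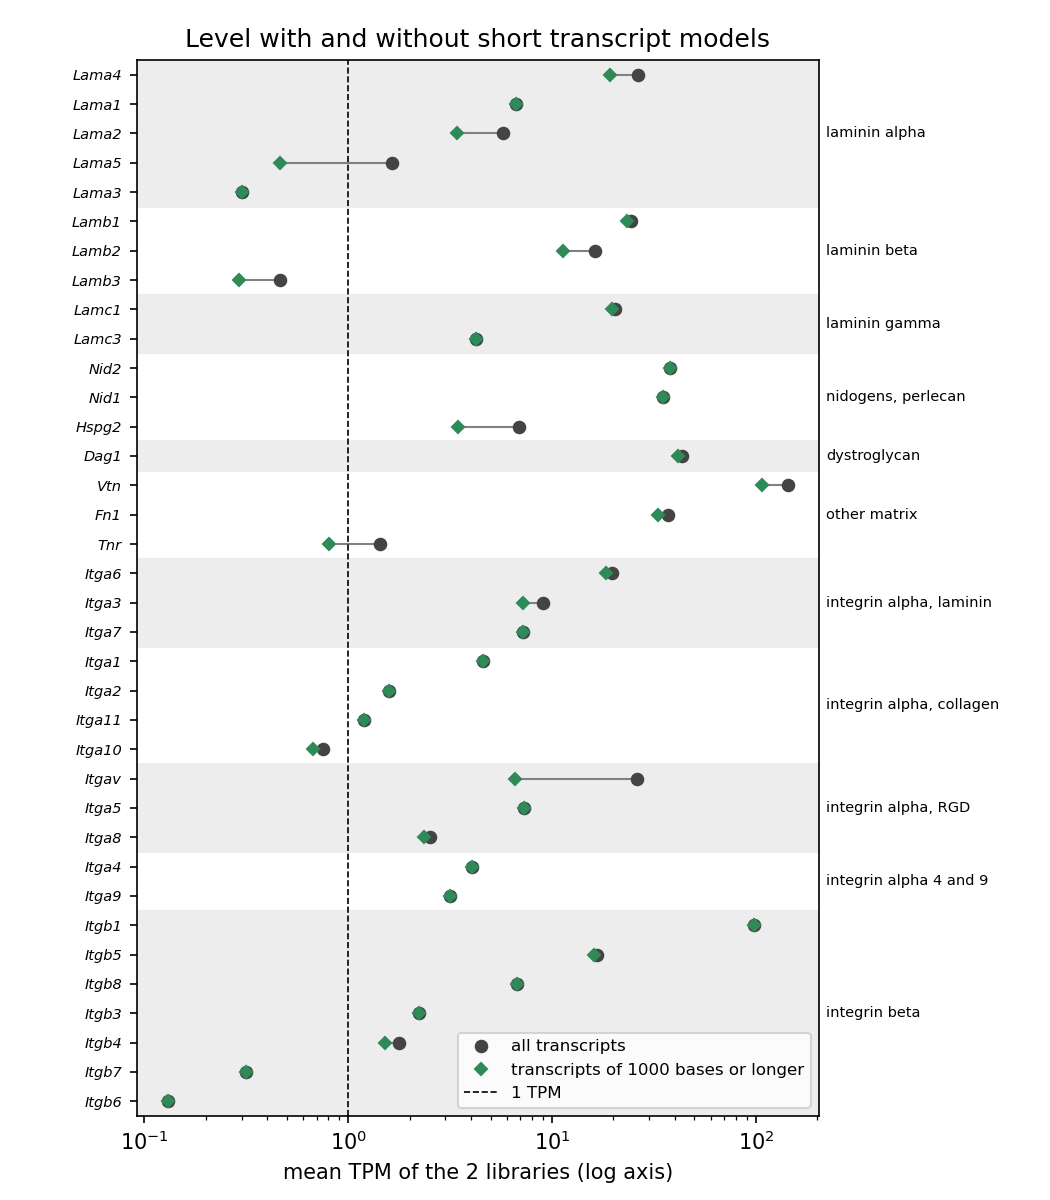
Mean TPM of the 2 libraries (log axis) over all transcripts of a gene (circles) and over transcripts of 1000 bases or longer only (diamonds). Itgav moves from 26.0 to 6.59 TPM, and Lama5 and Tnr fall below the dashed line at 1 TPM, while Itgb1, Nid1 and Nid2 hardly move.

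For Itgav, a short model carried most of the TPM. The 463-base model Itgav-205 received 164.5 of 1079 reads in replicate 1 and 94.1 of 693 in replicate 2, yet 73.6% and 72.6% of the gene's TPM. Over models of 1000 bases or longer, Itgav was at 6.57 and 6.61 TPM, within the range of Itga5, and Itga6 led the alpha subunits at 19.1 and 17.7 TPM. On that scale Itga6 held 28.6% of alpha TPM and Itgav 10.2%, against 22.6% and 29.8% over all models. The order of Itgav and Itga6 was therefore opposite on these 2 scales. Over protein-coding models, which include Itgav-205, Itgav was above Itga6, at 25.9 and 24.0 against 10.1 and 9.48 TPM. The longer models of Itga6 include the noncoding Itga6-203, at 7.13 and 7.15 TPM.

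The same step lowered other genes too. Lama4 kept the lead among laminin alpha chains with 18.5 and 20.1 TPM, or 64.0% of alpha chain TPM over the longer models. Lama5 dropped to 0.41 and 0.52 TPM, since 77.0% and 65.3% of its TPM rested on short processed transcripts with 11.7% and 6.16% of its reads. Perlecan gene Hspg2 dropped to 2.97 and 3.94 TPM, because the 820-base processed transcript Hspg2-202 took 54.0% and 46.5% of its TPM with 57.0 and 35.3 reads. For tenascin-R, the retained-intron model Tnr-205 held 42.1% of TPM in replicate 1 with 9.21 reads. Itga3, at 7.7 and 6.71 TPM, then overlapped Itga7, which has no shorter model. Vtn was still the highest gene at 110.2 and 105.1 TPM, and 25.9% and 23.5% of its full TPM was on the retained-intron model Vtn-204. Over models of 1000 bases or longer 29 of 36 genes were detected, and over protein-coding models 28.

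Fibronectin TPM was split mainly between a coding model and a retained-intron model. Fn1-201, the 8315-base coding model with EDA and EDB, had 11.8 and 19.3 TPM. That was 40.7% and 42.8% of the gene's TPM, with 60.8% and 66.5% of its reads. Fn1-202, a 4022-base model with a retained intron, had 9.65 and 13.4 TPM, or 33.2% and 29.7%. Fn1-201 was the top model in both libraries, and of the gene's 17 models 6 were listed at 0 in both. Coding models together had 70.4% and 72.6% of Fn1 reads.

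Among models that span the EDA exon, those that hold it had 55.2% and 59.3% of TPM in replicates 1 and 2 (57.2% ± 2.86, SD, n = 2). Counting protein-coding models only, the share was 93.8% and 97.0% (95.4% ± 2.24). The gap between both figures is Fn1-202, which lacks EDA and is not coding. For EDB the share was 72.4% and 81.2% (76.8% ± 6.23), and 85.7% and 91.7% among coding models. Fn1-201 is the only model that holds EDB, so this share is that model's own. In the variable V region, where splicing keeps all, part or little of a 467-base exon, coding models with all of it had 95.7% and 94.7% of TPM. Those with 392 bases had 4.35% and 5.28%, and models with 107 bases were listed at 0. The deposited posterior SD for Fn1-201 was 115 and 113 reads against 2198 and 2270 reads. The other coding models were less certain. The SD was 78.5 and 53.9 for 149 and 69.6 reads on Fn1-203, which skips both exons. It was 79.9 and 61.4 for 107 and 126 reads on Fn1-211, and 80.35 and 98 for 93.2 and 0 on Fn1-214. For the 107-base V models, at 0 reads, it was 36.1 and 37.7 (Fn1-213) and 46.9 and 29.8 (Fn1-216).

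**Figure D3:**
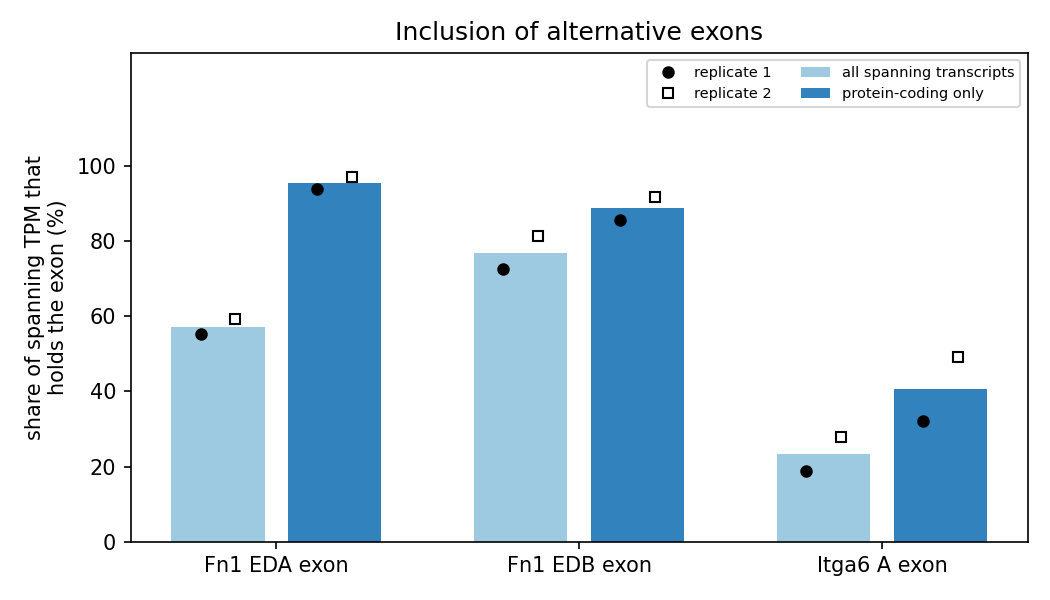
Share of the TPM of spanning transcripts that holds the EDA or EDB exon of Fn1 or the A exon of Itga6, in percent. Bars are means of replicate 1 (filled circles) and replicate 2 (open squares), light over all spanning transcripts and dark over protein-coding ones, and all 3 dark bars are higher than the light bars beside them.

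Models of both alpha 6 tails received reads. Itga6-201, which codes for the A form of 1073 residues, had 3.12 and 4.49 TPM. Itga6-202, which codes for the B form of 1091 residues, had 6.82 and 4.83 TPM. The B model was above the A model in both libraries, though by little in replicate 2. Including a further coding model, Itga6-207, with the exon, the A exon was held by 18.8% and 28.0% of spanning TPM (23.4% ± 6.44, SD, n = 2). Among coding models it was 32.2% and 49.1% (40.6% ± 11.9).

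Assignment of reads between the tails was uncertain. The posterior SD was 90.2 reads for 297 reads on Itga6-201 and 89.7 for 625 on Itga6-202 in replicate 1, and 64.5 for 271 and 64.3 for 281 in replicate 2. The largest share of Itga6 TPM, 35.2% and 37.3%, was on Itga6-203, a processed transcript of 3 exons that skips the A exon and has no coding frame. Its posterior SD was 8.57 and 7.10 reads for 423 and 269 reads.

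Most of the genes differed little between the libraries. Of 35 with a mean count of 10 or more, 1 was called by an exact binomial test against counting noise (adjusted p under 0.05 and at least 2-fold), against 2.25% of the 17428 genes tested (1.45% higher and 0.798% lower in replicate 2). That gene was Itgb7, whose 30 and 4 reads give a log2 ratio of replicate 2 over replicate 1 of -2.17 ± 0.729 (counting SE; Benjamini-Hochberg adjusted p = 0.00454 by the exact test). The remaining gene, Itgb6, had too few reads to test. The log2 ratio was within 1.2-fold for 27 of 35 genes, or 77.1%, against 73.4% of all genes tested. At a mean of 200 counts or more the shares were 84.6% and 89.3%. The test compares these 2 libraries and not conditions.

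With no minimum fold, 8 of the 35 had an adjusted p under 0.05, 3 higher and 5 lower in replicate 2, against 24.4% of all genes tested (12.0% higher and 12.4% lower). Fn1 was the most distinct, with 3618 and 3413 reads from libraries of unequal depth and a log2 ratio of 0.51 ± 0.0344 (adjusted p = 2.39e-46 by the exact test), or 1.42-fold higher in replicate 2. Hspg2 was higher in replicate 2 at a log2 ratio of 0.32 ± 0.0677 (adjusted p = 4.84e-05) and Itga5 at 0.31 ± 0.0864 (adjusted p = 0.00319). Scaled to depth, fibronectin and its receptor subunit Itga5 were thus both higher in replicate 2. Lower in replicate 2 were Itga7 at -0.43 ± 0.0936 (adjusted p = 5.57e-05), Itga3 at -0.22 ± 0.0828 (adjusted p = 0.0407), Vtn at -0.15 ± 0.0347 (adjusted p = 0.000176) and Nid1 at -0.11 ± 0.0338 (adjusted p = 0.0104). With scaling by the total count of mouse genes in place of TMM, Itga3 missed the threshold (adjusted p = 0.0619 by the exact test). All of these but Itgb7 were under 2-fold, as the plot of ratios shows. The laminin chains gave none of the 8.

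**Figure D4:**
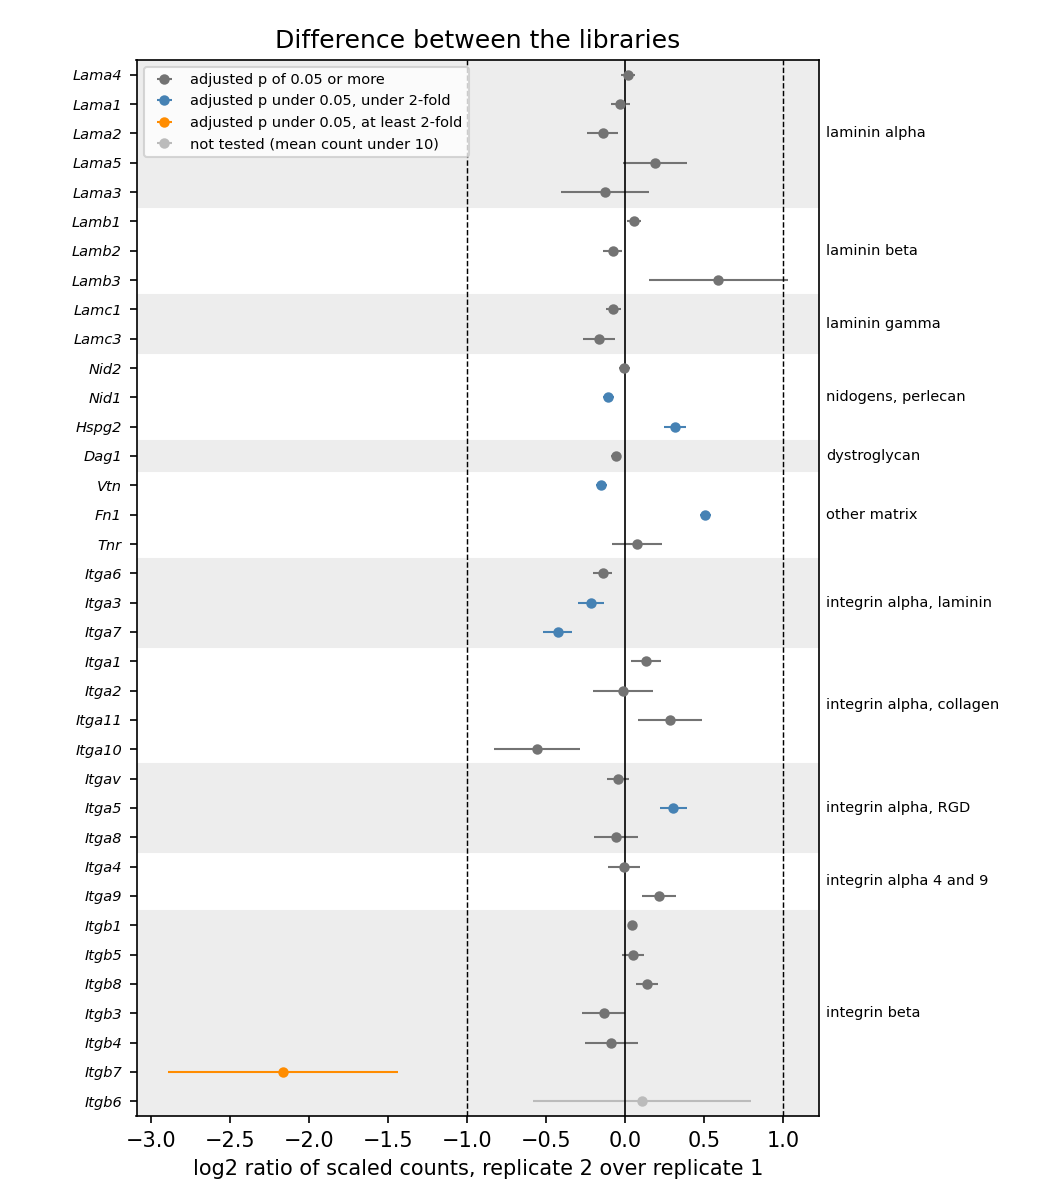
Log2 ratio of scaled counts, replicate 2 over replicate 1, for each gene, with bars of 1 counting SE. Dashed lines mark 2-fold, and only Itgb7, at -2.17, lies beyond them with an adjusted p under 0.05. Fn1, Hspg2 and Itga5 lie to the right of 0 and Itga7, Itga3, Vtn and Nid1 to the left, all within 2-fold.

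Markers of other tissues moved between the same libraries. Beside the higher Fn1, Hspg2 and Itga5 in replicate 2 stand the muscle, epidermal and notochord sums given above, and cartilage markers summed to 96.3 and 133 TPM. None of the 6 cartilage markers passed 2-fold, and at an adjusted p under 0.05 with no minimum fold, the threshold of these genes, 5 of 6 were higher in replicate 2. Mesenchyme and meningeal markers summed to 747 and 788 TPM and endothelial markers to 216 and 226 TPM, with none at 2-fold in either list. With no minimum fold, 2 of 8 mesenchyme and meningeal markers were higher and 2 lower, and 1 of 7 endothelial markers was higher and 1 lower. Pericyte markers summed to 60.4 and 83.2 TPM, with none of 6 at 2-fold and 1 higher with no minimum fold. Markers of skeletal muscle, the other tissue named for Itga7, moved opposite to it, at 125 and 218 TPM. Beside the lower Itga7 and Itga3 in replicate 2, Schwann cell and crest markers summed to 76.5 and 68.4 TPM and sensory ganglion markers to 788 and 625 TPM, with none at 2-fold in either list. With no minimum fold, 3 of 6 Schwann cell and crest markers were lower in replicate 2, and of 6 sensory ganglion markers 4 were lower and 1 was higher. By the same threshold 5 of 7 neuronal markers were lower and 2 higher, and 2 of 7 progenitor markers were lower. Macrophage markers, given beside Itgb7, summed to 134 and 126 TPM, with 1 of 6 lower at no minimum fold. Their part in these differences was not tested.

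For several genes counts and TPM moved differently between the libraries. Tnr counts had a log2 ratio of 0.08 and its TPM a ratio of -0.60. The same values were 0.59 and -0.60 for Lamb3, 0.19 and -0.25 for Lama5, and -0.09 and -0.50 for Itgb4. For Itga3, lower in replicate 2 by counts, the TPM ratio was 0.02. For the first 4 of these the effective length, the model-weighted length used for TPM, was longer in replicate 2, for example 5193 and 8682 bases for Tnr. A count ratio and a TPM ratio of these genes are therefore different quantities. For Nid2, 8.45% of exon bases are shared with Rtraf on the opposite strand, at 173 and 165 TPM, and the handling of strand is not given in the sources used here.

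Partner genes of the same pathway were expressed with them. Of 23 other basement membrane genes 16 were detected, led by the collagen-binding protein gene Sparc (594 and 563 TPM), the heparan sulfate proteoglycan gene Agrn (91.9 and 91.2 TPM) and the type IV collagen gene Col4a1 (72.4 and 63.6 TPM). Agrn was above every laminin chain in both libraries. The gene called between the libraries was Smoc2, with 266 and 473 reads and a log2 ratio of 1.42 ± 0.110. Of 9 other integrin and integrin-like genes, mostly of blood cells, 2 were detected. They were the integrin gene Itga2b (4.70 and 4.37 TPM) and the integrin beta-like gene Itgbl1 (2.52 and 2.41 TPM). None of 5 tested was called.

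Inside the cell, 19 of 22 integrin adaptor genes were detected and none of 21 tested was called. The integrin-linked kinase gene Ilk was highest at 183 and 184 TPM, followed by its partner Lims1 at 53.7 and 56.5 TPM and the kindlin gene Fermt2 at 49.3 and 58.7 TPM. Of 14 genes of the dystroglycan complex 12 were detected, led by the sarcoglycan genes Sgce and Sgcb at means of 54.0 and 27.9 TPM and the dystrobrevin gene Dtnb at 32.5 TPM. Of 13 matched genes that glycosylate dystroglycan, which laminin binding requires, 12 were detected, with B4gat1 at 50.1 and 51.7 TPM, Pomgnt1 at 45.0 and 44.9 TPM and Rxylt1 at 32.4 and 35.7 TPM. None of these was called in either list. Of 18 other adhesive ligands and syndecans 17 were detected and none was called, with Sdc3, Postn and Fbln1 highest at means of 58.9, 57.8 and 56.0 TPM. Over all genes tested, 2.25% were called. With no minimum fold, 9 of these 18 had an adjusted p under 0.05, 8 higher and 1 lower in replicate 2. The 21 adaptors had 8, 6 higher and 2 lower, and 22 tested basement membrane genes had 8, 5 higher and 3 lower. In the dystroglycan lists only lower genes passed, 1 of 13 in the complex and 3 of 13 for glycosylation. All genes tested gave 12.0% higher and 12.4% lower.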

How the data were processed

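Total RNA of 2 neural tube libraries was quantified by the authors against mm10 and GENCODE M4, per the labels. Neither an aligner nor a quantifier is named, and strand handling is not given in the sources used here. Expected counts, as the authors deposited them, estimate the reads of each gene or transcript and need not be whole. The deposited TPM are scaled to a fixed sum over all features, spike-ins included (13.0% and 12.6% of it). The deposited FPKM served in an alternative, as did the posterior mean counts and TPM. The deposited isoform percent is a transcript's share of its gene's TPM, and the deposited posterior SD of the count is in reads.

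GENCODE M21 supplied names, transcript types and GRCm38 coordinates, joined by identifier with the version removed. Of 176 transcripts of the 36 genes, 167 have the same length in M21. Transcript types are those of M21.

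Detection needed 1 TPM or more in each library. Rounded expected counts of the libraries were compared by an exact binomial test, two-sided, at TMM effective library sizes (edgeR 4.0.16, R 4.3.3), over all mouse genes with a mean of 10 counts or more, with Benjamini-Hochberg adjustment over them. Log2 ratios add 0.5 to each count, and SEs are counting errors. Nothing in the labels says the replicates came from different litters or days, so p-values measure only these libraries. With 2 samples, SDs have 1 degree of freedom. An alternative took size factors from DESeq2 1.42.0. The remaining steps ran in Python 3.11.15 with pandas 2.3.3, SciPy 1.17.1, NumPy 2.4.6 and matplotlib 3.10.9. All 36 genes are named, with the 3 highest and any called genes of each other list and the Fn1 and Itga6 transcripts at 10% or more. Other transcripts named were chosen after their values were seen. The genes and lists were chosen with earlier results of these data known.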

Additional observations from a re-analysis of the deposited data

How the results depend on the processing

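No paired analysis was possible because the series has 1 group. Leaving out a library was not run for the comparison of the libraries, which needs both. The median level of 6.72 TPM became 7.71 TPM with TPM rescaled over mouse genes, 6.54 with posterior mean TPM, 5.07 over protein-coding models and 5.60 over models of 1000 bases or longer. Without replicate 1 or 2 it was 6.36 to 6.54 TPM. The count of 1 called gene became 0 where a mean of 50 counts was required and 8 with no minimum fold. Over all genes the 392 calls became 118 at a mean count of 50 or more, 706 at 1.5-fold and 4259 with no minimum fold. Itgb1's share was 75.8% with posterior mean TPM, 79.0% over protein-coding models and 78.3% over longer models, and that of Lamc1 82.0%, 82.3% and 82.3%. EDA inclusion became 95.4% and EDB inclusion 88.7% over coding models, EDB 70.3% with posterior mean TPM, and Itga6 A exon inclusion 40.6% over coding models. With scaling by total count, log2 ratios near 0 changed sign for Itga2 (0.0013), Nid2 (0.012) and Itga4 (0.010). The alternatives over protein-coding or longer models, and with no minimum fold, were chosen after seeing the data. The cause of these movements was not tested, beyond what each alternative leaves out.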
